A study of Homo sapiens with 12 samples.

Results

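The 10 genes described here encode the epidermal growth factor receptor (EGFR), 4 of its ligands (AREG, EREG, TGFA and HBEGF), 3 phosphatases of MAP kinases (DUSP4, DUSP5 and DUSP6) and 2 Sprouty inhibitors of the same pathway (SPRY2 and SPRY4). They were chosen by gene name, and all 10 were found among the 25733 genes of the expression table. RNA was sequenced from HCT116, an established human colon cancer line, in 4 groups of 3 libraries, and the study addressed how ammonia bears on TGF-β signalling in such cells. Control cells received neither agent, and the other groups received TGF-β, 10 mM ammonium chloride (NH4Cl), a source of ammonia, or both. The sample labels name the treatments alone, and the study's account of the sequencing adds only the dose of NH4Cl. Its general treatment methods, which do not say that they hold for these libraries, give NH4Cl for 24 h, or for 23 h before TGF-β at 200 pM for 1 h. They name no medium. The study's culture methods give medium with serum, while its imaging of another line used serum-free medium during NH4Cl treatment.

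EGFR is a receptor tyrosine kinase that, once a ligand binds, activates RAS and then the kinases RAF, MEK and ERK. ERK output induces genes that damp the pathway in turn, among them the dual-specificity phosphatases, which remove phosphate from MAP kinases, and the Sprouty proteins, which act between receptor and RAF. In colon cancer, amphiregulin and epiregulin are known as ligands through which cells stimulate their own EGFR.

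Levels are given as FPKM, which are reads per kilobase of exon divided by a scaling total for each library. The totals recovered from the values were 1.0171 to 1.0322 times the reads on genes in replicates 1 and 2 and 0.9637 to 0.9687 times in replicate 3, so FPKM of replicate 3 are slightly higher than reads on genes alone would give. The libraries held between 14807630 and 18191998 reads on genes (median 15484798), and each of the 10 genes had 108 to 3257 reads in a library. The label of a colon epithelial line was checked against markers. Of 12 epithelial markers, 11 had a mean of at least 1 FPKM, KRT18 was the most abundant at 876 FPKM, and the summed level was 2446 to 2676 FPKM in the libraries of replicates 1 and 2 and 3144 to 3645 in those of replicate 3, while KRT20, a keratin of mature colon cells, was near 0 at a mean of 0.190 FPKM. Within each replicate number the summed level was lowest under NH4Cl alone. It was 2446, 2480 and 3144 FPKM there and 2676, 2557 and 3528 in control, and its part in the results was not tested. Of 14 markers of fibroblasts, immune cells and endothelium, 12 were in the table and 4 had a mean of at least 1 FPKM, with LUM highest at 7.79 and none of the 12 at 0 in every library. Their summed level was 11.8, 11.9 and 15.7 FPKM in control replicates 1, 2 and 3, 12.9, 11.9 and 14.6 under TGF-β, 13.9, 14.6 and 17.7 under NH4Cl, and 14.1, 13.8 and 18.8 under both agents. This sum was far below that of the epithelial markers, but LUM alone lay above the means of EGFR (1.34) and HBEGF (3.87). Within each replicate number the summed level of the 12 was higher in both libraries with NH4Cl than in both without it. Its part in the results with NH4Cl was not tested.

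Replicate 3 stood apart from replicates 1 and 2 in every group, and this touched most of the 10 genes. AREG was 2.95 to 3.62 times as high in replicate 3 as in the mean of replicates 1 and 2 of its group, EREG was 2.97 to 3.49 times as high, DUSP5 2.27 to 2.45 times and HBEGF 1.92 to 2.81 times. On the log2(FPKM + 1) scale, the mean differences of these 4 genes were 1.68, 1.61, 1.2 and 0.99, beside a median absolute difference of 0.159 over the 12341 genes with a mean of at least 1 FPKM. In size, all 4 lay above percentile 99 of those genes. TGFA, DUSP6, SPRY4 and DUSP4 were higher in replicate 3 in all 4 groups by mean differences of 0.61, 0.48, 0.36 and 0.34. EGFR and SPRY2 hardly differed, at -0.04 and 0.07. The mitochondrial share of reads also set replicate 3 apart, with 4.50 to 5.12% against 2.46 to 3.18% in replicates 1 and 2, as did the summed markers of the line and of other cell types, which were higher in replicate 3 of every group, and their part in these differences was not tested. The labels do not say what a replicate number stands for or whether replicates are separate cultures, so the p-values given here measure only the spread between these libraries.

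**Figure D1:**
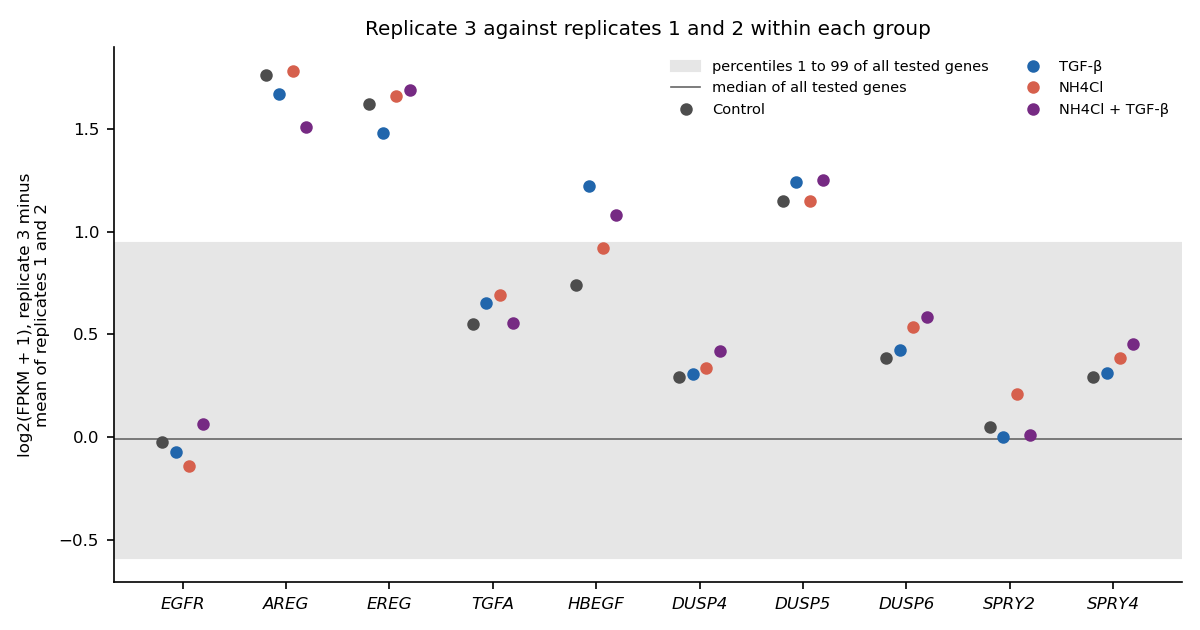
For each gene and group, the point is log2(FPKM + 1) of replicate 3 minus the mean of replicates 1 and 2. The line and grey band are the median and percentiles 1 to 99 (-0.59 to 0.942) over all tested genes. Both are for the mean difference over the 4 groups, so the band is not that of single groups. AREG, EREG and DUSP5 lie above the band in all 4 groups, while EGFR and SPRY2 lie near the line.

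Replicate number accounted for 98.7% of the variance of log2(FPKM + 1) of AREG and 98.8% of that of EREG, and the group for 0.430% and 0.511%. For TGFA, HBEGF, DUSP4 and DUSP6, replicate number accounted for 91.7 to 94.6%. In DUSP5 the group accounted for 12.3% and in SPRY4 for 19.0%. EGFR and SPRY2 were the reverse, with 87.0% and 67.4% of the variance between groups and 5.91% and 9.13% between replicate numbers. Groups were compared in 2 ways with limma, a linear model that shares information on the spread among all 12341 genes: with the 4 group means alone (the unblocked fit), and with replicate number as a further term (the blocked fit). Both fits were written down before the files were read here, the unblocked fit as the main test and the blocked fit as an alternative, while the genes were chosen with earlier results of these data known. In the main test 0 of the 10 genes passed in any comparison, so every passing call below is one of the blocked fit unless another is named. A gene passed at a Benjamini-Hochberg adjusted p under 0.05 over all 12341 genes. Fold changes are log2 differences of FPKM + 1, are the same in both fits, and understate the change of genes near 1 FPKM such as EGFR.

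NH4Cl against control asks what ammonia did in the absence of TGF-β. In the unblocked limma fit 0 of the 10 passed, beside 0.381% of all genes, with 1 of the 10 at an unadjusted p under 0.05 (10.8% of all genes) and 0 passing by voom on recovered reads. In the blocked fit 2 of the 10 genes passed, both higher with NH4Cl: DUSP5 and SPRY4. Over all tested genes 13.6% passed there, 7.42% higher and 6.14% lower. These were 1674 genes, and 705 to 1398 without any 1 library. With libraries centred on their median the larger part was lower (777 higher, 892 lower, against 916 and 758). The median fold change of the 10 genes was 0.03, against a median of 8.41e-05 over all genes.

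NH4Cl with TGF-β against TGF-β alone asks the same in cells that also had TGF-β. In the unblocked limma fit 0 of 10 passed, beside 1.03% of all genes, with 2 at an unadjusted p under 0.05 (13.3% of all genes) and 0 by voom. In the blocked fit 4 of 10 passed, with TGFA, DUSP5 and SPRY2 higher and EGFR lower, beside 18.8% of all genes, 10.3% higher and 8.48% lower. Both agents against control gave 0 of 10 in the unblocked limma fit beside 0.948% of all genes, with 2 at an unadjusted p under 0.05 (13.1% of all genes) and 0 by voom. The blocked fit gave 3 of 10, with DUSP5 and SPRY2 higher and EGFR lower, beside 18.4% of all genes, 10.7% higher and 7.77% lower. Passing genes numbered 2322 and 2274 in these 2 blocked comparisons, and 1249 to 1798 and 1169 to 1720 without any 1 library. With median centring the higher and lower calls were nearly equal, at 1203 and 1167 and at 1164 and 1139. Counts of 2 to 4 among 10 genes were not tested against the shares of all genes, and nothing particular to the 10 genes is read from them. Without the block, the 47, 127 and 117 genes that passed over the whole table in these 3 comparisons became 0 to 29, 3 to 133 and 2 to 57 without any 1 library. Over 7 other settings without the block, voom among them, 0 to 60, 0 to 120 and 0 to 112 genes passed over the whole table. The share by voom alone is not given, so nothing is read from 0 of 10 by voom. The comparisons share libraries with each other, so their values stand side by side and were not compared.

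**Figure D2:**
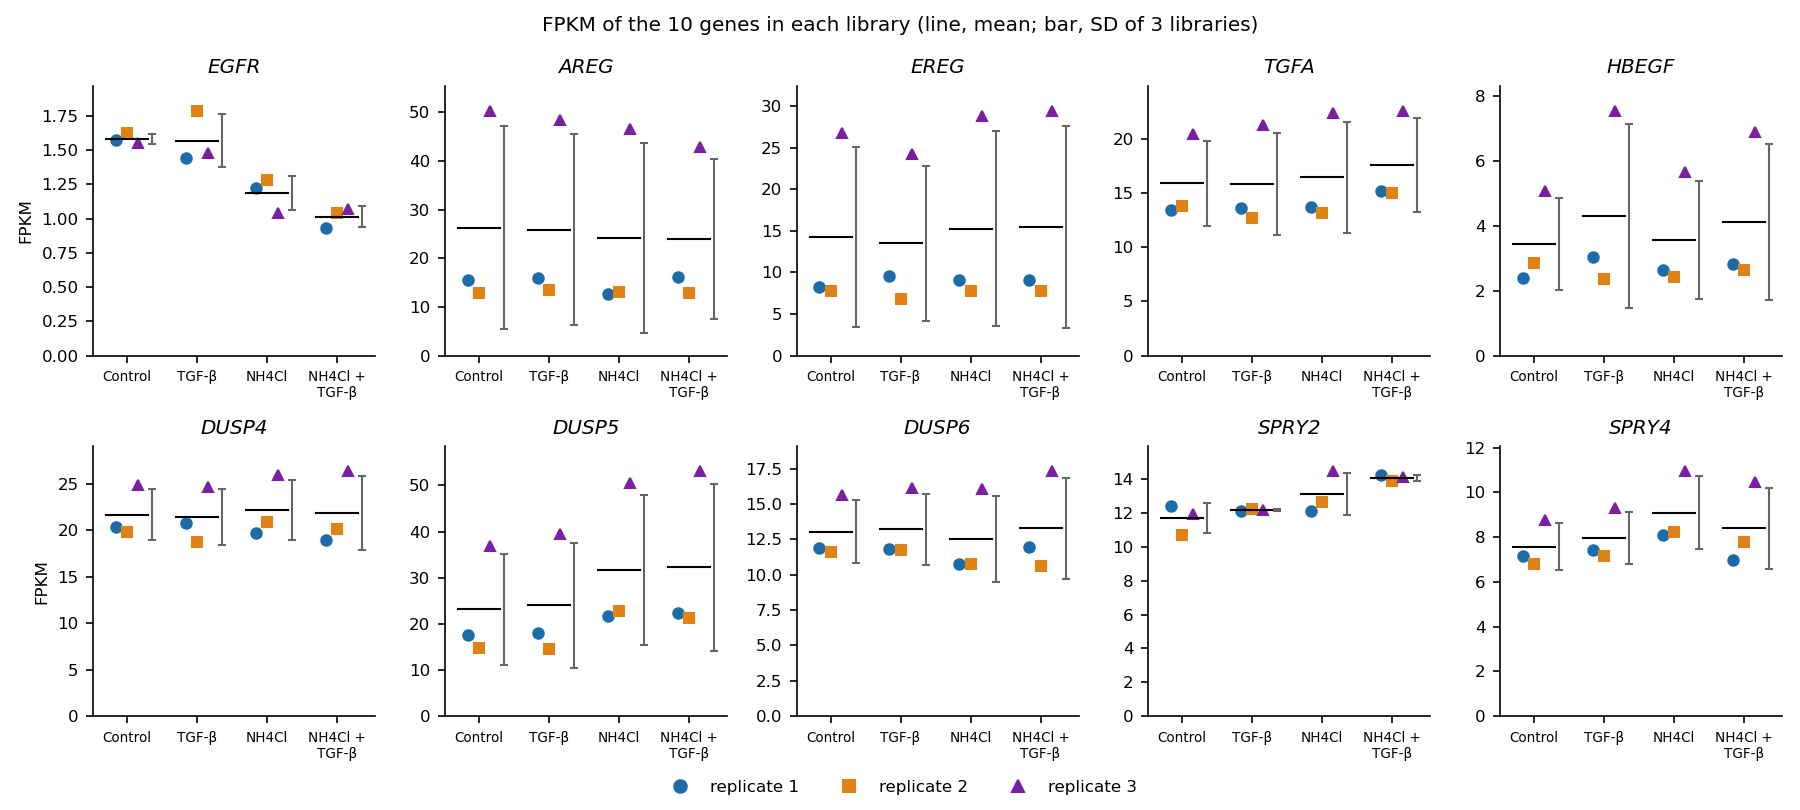
FPKM of each gene (vertical axes) in each of the 12 libraries, by group and with a symbol for each replicate number. Lines are means and bars are SD of 3 libraries; EGFR is lower in the groups with NH4Cl, and replicate 3 stands high in 8 of the 10 genes.

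By mean level over the 12 libraries, DUSP5 came first at 27.7 FPKM, followed by AREG at 25.1, DUSP4 at 21.8, TGFA at 16.5, EREG at 14.6, DUSP6 at 13.0, SPRY2 at 12.8, SPRY4 at 8.26, HBEGF at 3.87 and EGFR at 1.34. The range of EGFR, 0.928 to 1.79 FPKM, lay below that of every other gene of the 10. The range of each other gene overlapped that of its neighbour in this order. The order was different over the 8 libraries of replicates 1 and 2, where medians were highest for DUSP4 (20.0) and DUSP5 (19.6), then TGFA (13.7), AREG (13.2), SPRY2 (12.4), DUSP6 (11.7), EREG (8.06), SPRY4 (7.29), HBEGF (2.64) and EGFR (1.36). These are medians and not means, so the change in order is not put down to replicate 3 alone.

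EGFR (ENSG00000146648), the receptor gene, lies on the plus strand at chr7:55019021-55211628 of GRCh38. Its level was 1.57, 1.62 and 1.55 FPKM in control replicates 1, 2 and 3, 1.44, 1.79 and 1.48 under TGF-β, 1.23, 1.28 and 1.04 under NH4Cl, and 0.928, 1.04 and 1.07 under both agents. Every library with NH4Cl was below every library without it, in 6 against 6, and TGF-β replicate 2 was the highest. Mean levels were 1.58 ± 0.0366 (SD, n = 3) in control, 1.57 ± 0.190 under TGF-β, 1.18 ± 0.124 under NH4Cl and 1.01 ± 0.0757 under both agents. The mean with NH4Cl was 0.748 times that of control, and the mean with both agents was 0.645 times that with TGF-β alone.

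In the blocked fit EGFR fell with both agents against TGF-β alone by 0.35 on the log2 scale (SE 0.0720, adjusted p = 0.0096), and against control by 0.36 (adjusted p = 0.00833), lower in 3 of 3 replicate numbers each time. The unblocked fit gave adjusted p = 0.071 and 0.0596. With NH4Cl alone the difference was -0.24 (SE 0.0720), again lower in 3 of 3, with an adjusted p of 0.0518 blocked and 0.236 unblocked, so it missed the threshold, which does not show that the levels were equal. On recovered reads with voom, which adds no FPKM to the level, the 3 blocked differences were -0.62, -0.64 and -0.41, over 1.5 times as large, and the last passed there (adjusted p = 0.00288). Without TGF-β replicate 2 the call against TGF-β alone was lost (-0.31, adjusted p = 0.0508). In replicates 1 and 2 alone the blocked values were -0.40 (adjusted p = 0.0348) against TGF-β alone, -0.39 (0.0381) against control, and -0.20 (0.197) for NH4Cl alone. In bulk RNA, fewer cells that express a gene and less of its RNA per cell cannot be told apart. An antisense gene, EGFR-AS1, overlaps 186 of the 12521 exon bases of EGFR. As the strand setting of the counting is not stated, reads of either cannot be told apart within that overlap.

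AREG (ENSG00000109321) encodes amphiregulin and EREG (ENSG00000124882) epiregulin, ligands made as membrane-bound precursors. They lie on the plus strand of chromosome 4 at chr4:74445134-74455009 and chr4:74365143-74388751, with 56382 bases between them. Their promoters are shown because the 2 genes are neighbours and both were high in replicate 3, a shift that most of the 10 genes shared. RefSeq promoter windows (GRCh38.p14) matched 8 of the 10 genes. The windows of AREG, chr4:74444886-74445125, and EREG, chr4:74364895-74365134, both plus strand, run from 250 to 11 bases before the start, and capitals mark a motif match:
AREG: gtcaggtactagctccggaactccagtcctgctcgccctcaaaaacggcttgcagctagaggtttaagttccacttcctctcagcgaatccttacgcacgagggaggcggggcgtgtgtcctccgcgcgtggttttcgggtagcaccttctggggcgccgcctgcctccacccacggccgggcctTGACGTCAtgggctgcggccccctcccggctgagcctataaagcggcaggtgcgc
EREG: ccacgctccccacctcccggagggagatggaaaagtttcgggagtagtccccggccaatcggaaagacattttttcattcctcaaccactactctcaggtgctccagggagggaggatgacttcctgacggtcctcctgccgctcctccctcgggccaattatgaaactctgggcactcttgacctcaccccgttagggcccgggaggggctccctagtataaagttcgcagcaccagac
Each window was searched on both strands for TGANTCA (an AP-1 motif), TGACGTCA (the cyclic AMP response element), CACGTG (an E-box) and CCGGAAGT (an ETS motif), none of which contains another. AREG holds 1 match, TGACGTCA, 65 to 58 bases before the start, and EREG holds 0. Over all 35116 windows of this length, 6.43% hold TGANTCA, 1.57% TGACGTCA, 6.01% CACGTG and 2.92% CCGGAAGT. Among the other matched genes, EGFR alone held matches, 2 of TGANTCA in a second window. A match describes the letters and is not a binding site, and its absence says only that these letters are not in the window. GC content was 64.6% for AREG and 58.3% for EREG.

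AREG was at 15.5, 13.0 and 50.4 FPKM in control replicates 1, 2 and 3, 15.9, 13.4 and 48.4 under TGF-β, 12.7, 13.1 and 46.6 under NH4Cl, and 16.2, 12.8 and 42.8 under both agents. EREG was at 8.29, 7.73 and 26.7 FPKM in control, 9.52, 6.78 and 24.2 under TGF-β, 9.13, 7.82 and 28.8 under NH4Cl, and 9.11, 7.78 and 29.5 under both agents. In both genes replicate 3 was the high library of every group, and all groups overlapped. With NH4Cl alone the blocked difference was -0.12 for AREG (95% interval -0.29 to 0.04) and 0.08 for EREG (-0.07 to 0.23), and the intervals without the block ran from -1.67 to 1.42 and from -1.41 to 1.57. Neither gene passed in any of the comparisons in either fit, but EREG passed for both agents against TGF-β alone once TGF-β replicate 1 was left out of the blocked fit (0.23, adjusted p = 0.0173, against 0.13 and 0.197 with it). Over the 12 libraries log2(FPKM + 1) of the 2 genes had a Pearson r of 0.98, and after the mean of each replicate number was taken away r was -0.35, so what they share lay between replicate numbers. Genes on other chromosomes were nearly as alike over the 12 libraries, such as EREG with TGFA (0.977) and DUSP4 (0.965) and AREG with DUSP6 (0.971). SPRY2 (0.27) and EGFR (-0.113) were not so with AREG.

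TGFA (ENSG00000163235) encodes TGF-α, another EGFR ligand, on the minus strand at chr2:70447280-70554193. It was at 13.4, 13.9 and 20.4 FPKM in control replicates 1, 2 and 3, 13.6, 12.7 and 21.2 under TGF-β, 13.8, 13.2 and 22.4 under NH4Cl, and 15.2, 15.0 and 22.6 under both agents. Replicate 3 was highest in each group, and within each replicate number the library with both agents was highest of the 4. Against TGF-β alone, TGFA rose with both agents by 0.15 in the blocked fit (SE 0.0437, adjusted p = 0.0384, higher in 3 of 3), and the mean level was 1.11 times as high. The unblocked adjusted p was 0.879. The blocked call did not pass without TGF-β replicate 1 (adjusted p = 0.0844), 2 (0.15) or 3 (0.0564), or without replicate 1 (0.109) or 2 (0.129) of the cells given both, nor with no FPKM filter (0.0663), with equal library sums (0.0746) or without the intensity trend (0.056). In replicates 1 and 2 alone it was 0.18 (blocked adjusted p = 0.0476).

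HBEGF (ENSG00000113070) encodes heparin-binding EGF-like growth factor, on the minus strand at chr5:140332843-140346631. It was at 2.41, 2.87 and 5.08 FPKM in control replicates 1, 2 and 3, 3.03, 2.36 and 7.57 under TGF-β, 2.64, 2.41 and 5.66 under NH4Cl, and 2.84, 2.64 and 6.91 under both agents. Replicate 3 was high throughout, most with TGF-β, and the groups overlapped. The difference between TGF-β and control was 0.18 (95% interval -0.06 to 0.41 in the blocked fit), lower in replicate 2 and higher in the other two.

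DUSP4 (ENSG00000120875) encodes a nuclear phosphatase of ERK and other MAP kinases, on the minus strand of chromosome 8. It was at 20.4, 19.8 and 24.9 FPKM in control replicates 1, 2 and 3, 20.8, 18.8 and 24.7 under TGF-β, 19.8, 20.9 and 25.9 under NH4Cl, and 18.9, 20.2 and 26.4 under both agents. The 4 groups overlapped fully, with replicate 3 highest in each. Its blocked difference with NH4Cl alone was 0.03 (95% interval -0.08 to 0.14).

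DUSP5 (ENSG00000138166) encodes a nuclear phosphatase with a preference for ERK, on the plus strand at chr10:110497838-110511544. It was at 17.6, 14.8 and 36.9 FPKM in control replicates 1, 2 and 3, 17.9, 14.4 and 39.5 under TGF-β, 21.6, 22.8 and 50.5 under NH4Cl, and 22.3, 21.2 and 53.2 under both agents. Within each replicate number both libraries with NH4Cl were above both without it, while the groups overlapped because replicate 3 was high in all. Mean levels were 23.1 ± 12.1 (SD, n = 3) in control, 23.96 ± 13.6 under TGF-β, 31.6 ± 16.3 under NH4Cl and 32.2 ± 18.2 under both agents.

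In the blocked fit DUSP5 rose with NH4Cl alone by 0.44 on the log2 scale (SE 0.0642, adjusted p = 0.00249), 1.36-fold, and was higher in replicates 1, 2 and 3 by 0.28, 0.60 and 0.44. With both agents against TGF-β alone it rose by 0.41 (adjusted p = 0.0025), and against control by 0.44 (adjusted p = 0.00189), in 3 of 3 each time. The unblocked fit gave adjusted p = 0.858, 0.807 and 0.797. In replicates 1 and 2 alone the blocked differences were 0.44 (adjusted p = 0.0326), 0.41 (0.0314) and 0.41 (0.0333), and there the 3 comparisons also passed without the block (0.0427, 0.043 and 0.0457).

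DUSP6 (ENSG00000139318) encodes a cytoplasmic phosphatase of ERK, on the minus strand at chr12:89347232-89353271. It was at 11.9, 11.6 and 15.6 FPKM in control replicates 1, 2 and 3, 11.8, 11.7 and 16.1 under TGF-β, 10.8, 10.8 and 16.1 under NH4Cl, and 11.96, 10.6 and 17.4 under both agents. Replicate 3 was the high library of each group, and the groups overlapped. With NH4Cl alone the blocked difference was -0.07 (95% interval -0.18 to 0.05), so of the 3 phosphatase genes only DUSP5 passed in this comparison with the block, and whether their responses differ was not tested. An antisense gene, AC024909.2, overlaps 1875 of the 4632 exon bases of DUSP6 and had a mean of 0.184 FPKM. With the strand setting not stated, reads of either cannot be told apart within that overlap.

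SPRY2 (ENSG00000136158) encodes Sprouty 2, on the minus strand at chr13:80335976-80340951. It was at 12.4, 10.7 and 11.97 FPKM in control replicates 1, 2 and 3, 12.1, 12.3 and 12.2 under TGF-β, 12.1, 12.7 and 14.5 under NH4Cl, and 14.3, 13.9 and 14.2 under both agents. The libraries with both agents were above all control and TGF-β libraries, while those with NH4Cl alone overlapped each other group. Against control, SPRY2 rose with both agents by 0.25 in the blocked fit (SE 0.0597, adjusted p = 0.0178, higher in 3 of 3), and the mean level went from 11.7 ± 0.894 to 14.1 ± 0.177 FPKM (SD, n = 3). Against TGF-β alone it rose by 0.19 (adjusted p = 0.0478). Unblocked adjusted p-values were 0.14 and 0.266. In replicates 1 and 2 alone the blocked values were 0.27 (0.0481) against control and 0.19 (0.108) against TGF-β alone.

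These SPRY2 calls lay near the threshold. The call against control was lost without control replicate 2 (adjusted p = 0.0874) or 3 (0.062), or without replicate 1 (0.0628) or 2 (0.0668) of the cells given both. The call against TGF-β alone was lost without any 1 of its 6 libraries, with adjusted p of 0.127, 0.0713 and 0.147 without TGF-β replicates 1, 2 and 3, and 0.133, 0.14 and 0.0696 without replicates 1, 2 and 3 of the cells given both. It was also lost with no FPKM filter (0.103), equal library sums (0.0576), libraries centred on their median (0.0519) and no intensity trend (0.064).

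SPRY4 (ENSG00000187678) encodes Sprouty 4, on the minus strand at chr5:142310427-142326455. It was at 7.16, 6.79 and 8.77 FPKM in control replicates 1, 2 and 3, 7.42, 7.16 and 9.30 under TGF-β, 8.11, 8.21 and 10.97 under NH4Cl, and 6.98, 7.78 and 10.5 under both agents. Within each replicate number the library with NH4Cl alone was highest of the 4, and replicate 3 was high in each group, so the groups overlapped. In the blocked fit SPRY4 rose with NH4Cl alone by 0.23 (SE 0.0525, adjusted p = 0.0188, higher in 3 of 3), from a mean of 7.57 ± 1.05 to 9.10 ± 1.62 FPKM (SD, n = 3). The unblocked adjusted p was 0.694. The call was lost without control replicate 2 (adjusted p = 0.0795) or 3 (0.0804) and without NH4Cl replicate 1 (0.0586), 2 (0.0668) or 3 (0.0555), and in replicates 1 and 2 alone the value was 0.20 (0.0976). With both agents the differences were 0.06 against TGF-β alone (adjusted p = 0.47) and 0.12 against control (0.135), and the latter passed once replicate 1 of the cells given both was left out (0.19, 0.0351).

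**Figure D3:**
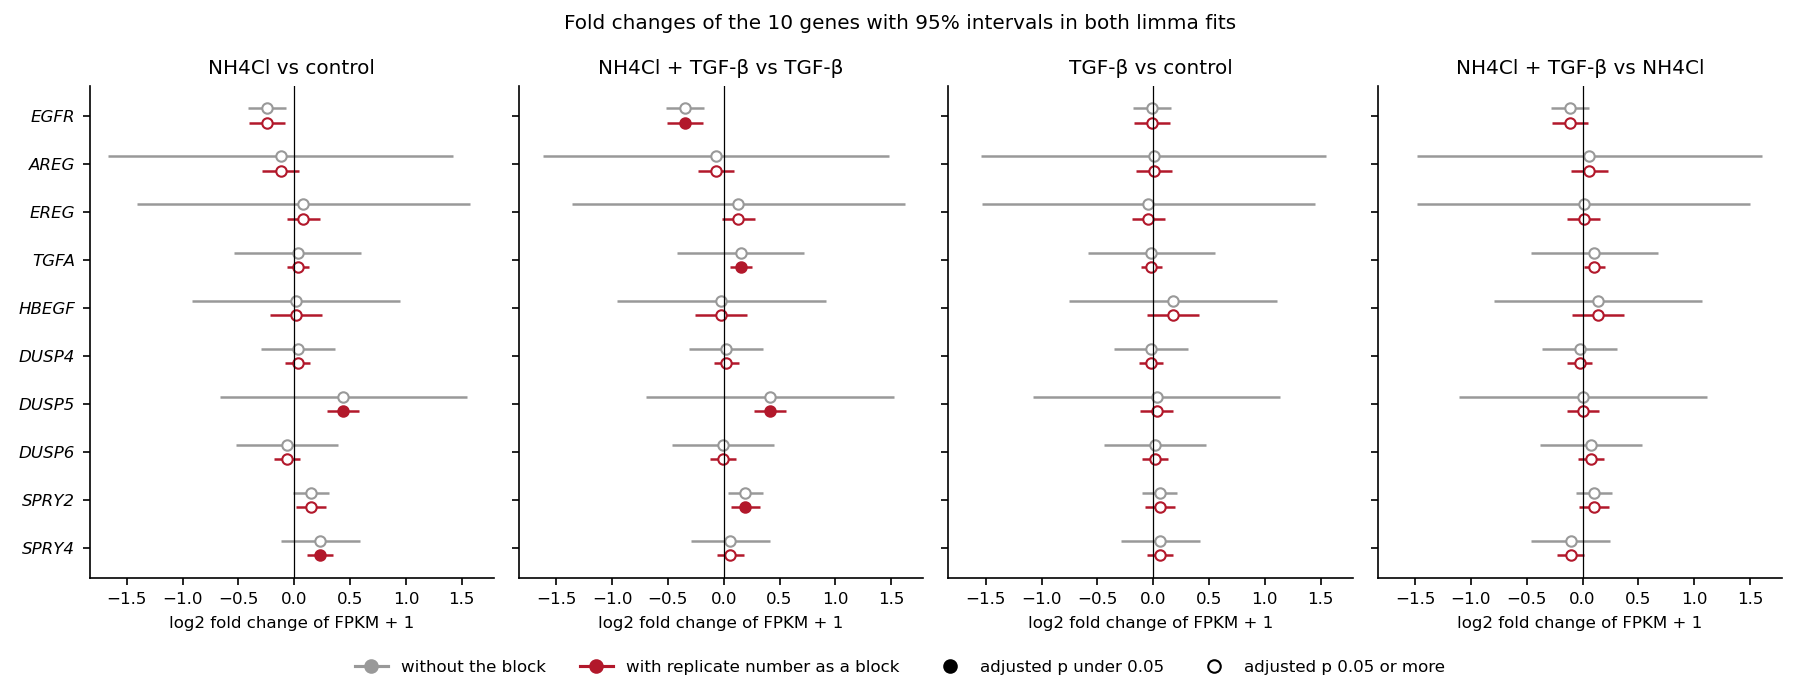
Log2 fold changes of FPKM + 1 with 95% intervals for each gene in 4 comparisons, without the block in grey and with it in red, filled where the adjusted p is under 0.05. The block narrows the intervals of AREG, EREG and DUSP5 most, and those of EGFR and SPRY2 least.

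TGF-β against control asks what TGF-β did. None of the 10 genes passed: 0 of 10 in the unblocked limma fit beside 0% of all genes, and 0 of 10 in the blocked fit beside 0.0081% of all genes, which is 1 gene, ID1. At an unadjusted p under 0.05 there were 0 of 10 in both fits (0.835% of all genes unblocked and 3.42% blocked), and voom gave 0 in both. Absolute differences of the 10 genes had a median of 0.02, beside 0.04 over all genes. NH4Cl with TGF-β against NH4Cl alone likewise gave 0 of 10 in the unblocked limma fit, beside 0% of all genes, and 0 of 10 in the blocked fit, beside 0.0081%. At an unadjusted p under 0.05 there were 0 unblocked (1.34% of all genes) and 1 blocked (TGFA, 0.11; 7.12% of all genes), and voom gave 0 in both. In each of these 2 comparisons, 7 other unblocked settings passed 0 genes over the whole table and 6 blocked ones 0 to 2, voom among them.

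Whether the response to TGF-β differs with NH4Cl was tested as the interaction of the 2 agents. In both limma fits 0 of 10 passed, beside 0% of all genes, with 0 (unblocked) and 1 (blocked) at an unadjusted p under 0.05, beside 0.932% and 4.35% of all genes, and 0 by voom. Over 6 other settings of each fit, voom among them, 0 genes of the whole table passed unblocked and 0 to 1 blocked. The 1 gene of the 10 at an unadjusted p under 0.05 was SPRY4, at -0.17 (95% interval -0.34 to -0.01, adjusted p = 0.992), negative in 3 of 3 replicate numbers. For EGFR the interaction was -0.11 (95% interval -0.33 to 0.12), so the larger size with both agents than with NH4Cl alone was not told from no difference.

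The genes also differed in how they varied together once the mean of each replicate number was taken away from log2(FPKM + 1), over 12 libraries that share 4 groups and 3 replicate numbers. EGFR ran opposite to DUSP5 (Pearson r -0.90), TGFA (-0.87) and SPRY2 (-0.84), and DUSP5 ran with SPRY4 (0.80) and SPRY2 (0.77). Before that step r was -0.46 for EGFR with DUSP5, -0.33 with TGFA and -0.84 with SPRY2. By the same measure, the genes of the table most like EGFR were TTPAL (0.98), CLN6 (0.97) and POU2F1 (0.97). Those most like DUSP5 were TNS1, PCBP3 and TMEM143 (each 0.98). For SPRY2 they were HLA-C (0.96), LSM4 (0.95) and UXS1 (0.95), and for SPRY4 EPB41 (0.95), B4GALT5 (0.95) and KLHL2 (0.94). For TGFA they were SERPINB6, EML3 (each 0.94) and HLA-E (0.93), for AREG H3F3A (0.94), RPLP1 (0.93) and MIS18A (0.92), and for DUSP4 CEP97 (0.94), ELK3 and NSD3 (each 0.91). These are descriptions over 12 libraries.

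The rest of the pathway was followed in 6 lists of related genes for NH4Cl against control, with counts from the blocked fit, since 0 of their genes passed without the block by limma or by voom in the 12 libraries. In the blocked fit 13.6% of all genes passed in this comparison, 7.42% higher and 6.14% lower, and the list counts below were not tested against these shares. The unadjusted counts without the block were 1, 0, 1, 1, 1 and 1 in the order given here, beside 10.8% of all genes. Of 10 other ERBB receptors and ligands, 2 were tested, and ERBB2, a receptor that pairs with EGFR, fell by 0.19 (SE 0.0491, adjusted p = 0.0345). ERBB3, the other gene tested, did not pass in the blocked limma fit, and its mean was 21.8 FPKM in control and 23.7 under NH4Cl. By voom with the block both genes passed, 1 higher and 1 lower. Of 8 sheddases and their iRhom partners, which release the ligands from the membrane, 6 were tested, 0 passed and 1 had an unadjusted p under 0.05 in the blocked limma fit (29% of all genes), with RHBDF2 at 0.10 and ADAM15 at 0.06. Of 16 genes from adaptors to ERK, 14 were tested. MAP2K1, which encodes MEK1, rose by 0.14 (adjusted p = 0.0315), and the RAS genes HRAS and NRAS fell by 0.18 (0.0208) and by 0.13 (0.0492).

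Of 18 other feedback inhibitors, 15 were tested, 2 rose and 0 fell, beside 13.6% of all genes passing: DUSP1, an immediate early phosphatase, by 0.37 (adjusted p = 0.00367) and DUSP16, a phosphatase of the stress kinases, by 0.32 (0.00119). All 15 genes of ERK output were tested, 2 rose and 2 fell, beside 7.42% of all genes higher and 6.14% lower. FOS rose by 0.43 (0.017) and MYC by 0.23 (0.00521), both encoding transcription factors, while CCND1, which encodes cyclin D1, fell by 0.19 (0.00252) and VGF fell by 0.30 (0.00985). All 8 genes listed as early targets of TGF-β were tested, a list that also holds TGFBR2, a TGF-β receptor gene. BHLHE40 rose by 0.56 (adjusted p = 0.00036) while ID1 fell by 0.31 (0.0146) and TGFBR2 fell by 0.25 (0.00471). With TGF-β against control, 1 of the 8 passed in the blocked fit, ID1, so a change of the others is not read as one of a TGF-β response. The list medians were -0.03, 0.05, 0.03, 0.01, 0.01 and -0.08 in the same order, beside 8.41e-05 over all genes. With voom and the block, the lists gave 1 higher and 1 lower, 0 and 0, 1 and 2, 2 and 0, 4 and 2, and 1 and 2 in that order. Over 6 other settings of the blocked fit, voom among them, 1123 to 2243 genes passed over the whole table.

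Of the 13 genes named above with passing calls in the blocked limma fit, DUSP1, DUSP16, MYC, CCND1, BHLHE40 and TGFBR2 passed without any 1 library and under all 7 other settings tried with the block. In replicates 1 and 2 alone (chosen after seeing the data), 9 of the 13 also passed without the block, beside 1293 genes over the whole table: ERBB2 (0.0334), HRAS (0.0292), NRAS (0.0473), DUSP16 (0.016), CCND1 (0.0276), MYC (0.0443), VGF (0.0431), BHLHE40 (0.00294) and TGFBR2 (0.0219). With the block, the calls of the 7 genes outside the 6 named first were lost without some libraries. Adjusted p-values without control replicates 1, 2 and 3 and then NH4Cl replicates 1, 2 and 3 were 0.0854, 0.0643, 0.125, 0.112, 0.0584 and 0.087 for MAP2K1, which also missed with equal library sums (0.0894), no intensity trend (0.0611) and replicates 1 and 2 alone (0.155). ERBB2 missed without control replicates 1 (0.155) and 2 (0.11) and NH4Cl replicates 1 (0.0999), 2 (0.0662) and 3 (0.105), and also with no FPKM filter (0.0684) or equal library sums (0.0719). HRAS missed without control replicates 1 (0.0758) and 2 (0.0999) and NH4Cl replicates 1 (0.0763) and 2 (0.0898), and with equal library sums (0.0614). NRAS missed without control replicates 1 (0.207), 2 (0.102) and 3 (0.0844) and NH4Cl replicates 1 (0.165) and 2 (0.171), and under 5 of the 7 other settings (at most 0.105). FOS missed without control replicates 2 (0.0796) and 3 (0.0544) and NH4Cl replicate 2 (0.0533) and with no FPKM filter (0.0553), VGF without control replicate 1 (0.0531) and in replicates 1 and 2 alone (0.0529), and ID1 without control replicates 2 (0.053) and 3 (0.0644) and NH4Cl replicate 2 (0.0666).

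ID1, an early target of TGF-β family signals, was the gene of the table that passed with TGF-β in the blocked fit, at 0.65 in the absence of NH4Cl (adjusted p = 0.0248) and 0.62 in its presence (0.0342), while the unblocked p-values were 0.0968 and 0.108 before adjustment and 1 after it. The first call was lost without control replicates 1 (0.296), 2 (0.138) and 3 (0.127) and TGF-β replicates 1 (0.15) and 2 (0.195), and with no FPKM filter (0.251), equal library sums (0.125), no intensity trend (0.102) and replicates 1 and 2 alone (0.112). The second was lost without any 1 of its libraries, with adjusted p of 0.206, 0.188 and 0.0767 without NH4Cl replicates 1, 2 and 3, and 0.125, 0.217 and 0.281 without replicates 1, 2 and 3 of the cells given both, and under the same 4 settings (0.186, 0.17, 0.136 and 0.25).

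**Figure D4:**
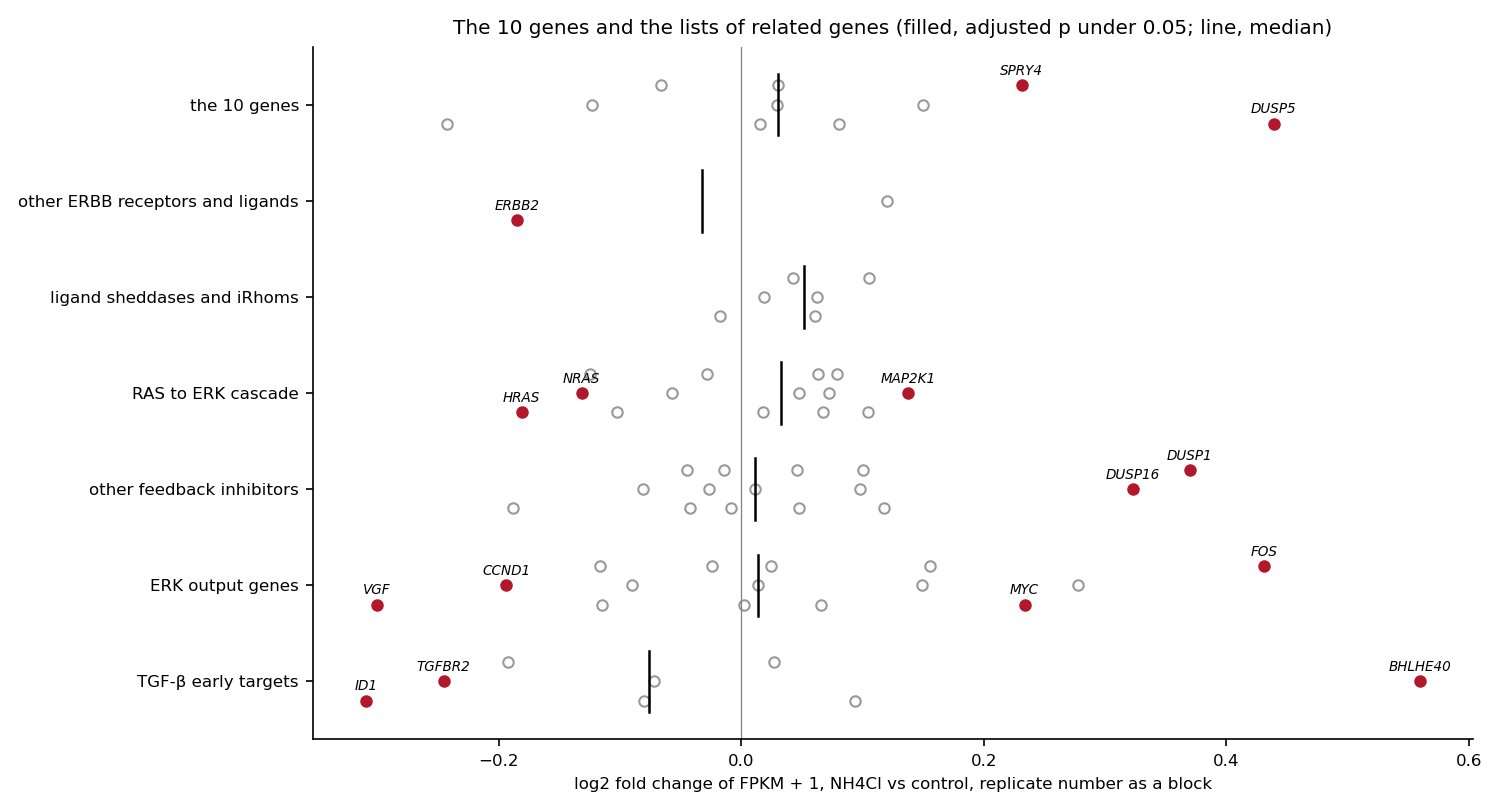
Each point is a gene's log2 fold change of FPKM + 1 with NH4Cl against control in the blocked fit, for the 10 genes and the 6 lists, filled and named where the adjusted p is under 0.05. Short lines are list medians, which lie between -0.0759 and 0.052.

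With both agents against TGF-β alone, the lists gave counts of 0 higher and 1 lower, 0 and 0, 1 and 0, 2 and 1, 4 and 2, and 1 and 3 in the same order in the blocked fit, among 2, 6, 14, 15, 15 and 8 genes tested and beside 18.8% of all genes. With both agents against control they were 0 and 0, 1 and 0, 2 and 2, 3 and 0, 3 and 3, and 2 and 1, beside 18.4% of all genes. These counts depend on single libraries, since 8 of the 15 calls against TGF-β alone and 7 of the 17 against control held without any 1 library: those of MAP2K1, DUSP16, CCND1, MYC, ID1, BHLHE40 and TGFBR2 in both, and that of DUSP1 in the first. The 2 calls of ID1 went opposite ways, at -0.33 against TGF-β alone and 0.32 against control. MAP2K1 was the gene of the cascade that passed in all 3 comparisons with NH4Cl in the blocked fit. It was at 0.27 (adjusted p = 0.00136) against TGF-β alone and 0.26 (0.00156) for both agents against control, and these 2 calls held without any 1 library and under all 7 other settings of that fit. Its unblocked adjusted p-values were 0.881 for NH4Cl against control, 0.585 and 0.612, and 0 genes of the lists passed in these comparisons in the unblocked limma fit of all 12 libraries, while in replicates 1 and 2 alone MAP2K1 passed without the block in the last 2 (0.0068 and 0.0128). MAP2K1 was singled out after its values were seen. By voom with the block, list counts against TGF-β alone were 0 and 1, 1 and 0, and 3 and 0 in the first 3. They were 2 and 3, 4 and 4, and 1 and 3 in the last 3. Against control, voom gave 0 and 0, 1 and 0, and 2 and 1 in the first 3. It gave 3 and 2, 5 and 3, and 3 and 1 in the last 3. Over 6 other settings of the blocked fit, voom among them, 1574 to 2981 and 1625 to 2931 genes passed.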

How the data were processed

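RNA sequencing of HCT116 cells gave 12 libraries, 3 in each of 4 groups. The deposited table holds FPKM computed by the authors for 25733 genes, from reads that, per the labels, were trimmed with Trimmomatic 0.36, aligned to GRCh38 with STAR 2.5.2b and counted with featureCounts of Subread 1.5.2. The paper instead names HTSeq for the counting. The authors compared groups with DESeq2. The annotation release and strand setting are not stated, and the paper mentions a quality check of genes without giving its criterion.

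All gene identifiers were found in GENCODE 29. FPKM times exon length and 1 scaling total recovered for each library gave whole reads for 100.0% of values (tolerance 0.05 read). Tested were the 12341 genes whose FPKM averaged 1 or more, all 10 named genes among them, on log2(FPKM + 1) with limma 3.58.1 in R 4.3.3, with an intensity trend, two-sided, with Benjamini-Hochberg adjustment over all genes tested and a threshold of 0.05, in 1 model of 4 group means. The test was also run on simulated data, and no result of that run is given or used here. Other steps used Python 3.11.15 and pandas 2.3.3.

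The pairing behind the blocked fit comes from the replicate numbers in the sample titles and from the data. Deviations from the group means correlated between libraries of the same number at 0.349 to 0.431 (replicate 1), 0.446 to 0.533 (replicate 2) and 0.702 to 0.774 (replicate 3), over 6 pairs each. With 3 libraries in a group, deviations of replicates 1 and 2 also carry the shift of replicate 3. That alone can raise their r, and no r of libraries of different numbers is given beside it. In replicates 1 and 2 alone, the block lowered the number of passing genes. It was 1147 against 1293 for NH4Cl against control, 1605 against 1630 for both agents against control, and 1653 against 1740 against TGF-β alone.

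The 10 genes and all lists were chosen with earlier results of these data known, and 2 list genes are not reported here. All 10 genes are named. From each list of related genes, those that passed for NH4Cl against control are named, at most 6 by size, or the 2 largest differences where none passed. For genes that passed or were among the 4 most abundant, the 3 most similar genes are named, by Pearson r after the mean of each replicate number was taken away. Alternatives were a pseudocount of 0.1, no filter, equal library sums, median centring, no intensity trend, only the 2 groups compared, the replicate block, and each library left out. Chosen after seeing the data were replicates 1 and 2 alone, voom on the recovered reads, and the block combined with each of the first 5. Promoter windows came from RefSeq.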

Additional observations from a re-analysis of the deposited data

How the results depend on the processing

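Without the replicate block, 0 of the 10 genes passed in each of the 6 comparisons. For NH4Cl against control, both agents against control and both agents against TGF-β alone, the counts became 2, 3 and 4 with the block, 1, 3 and 3 in replicates 1 and 2 alone (chosen after seeing the data), and 0, 1 and 1 without the intensity trend, where EGFR passed (adjusted p = 0.044 and 0.049). They stayed at 0 under every other setting and left-out library. Replicates 1 and 2 alone also gave 1293, 1630 and 1740 passing genes over the whole table, against 47, 117 and 127 with replicate 3. The block changed no call of the 10 genes in the other 3 comparisons, which gave 0 of 10 under every setting in both fits.

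With the block as the starting point, leaving out 1 library gave 1 to 2 genes for NH4Cl against control, 2 to 3 for both agents against control and 1 to 3 for both agents against TGF-β alone. Over the whole table, passing genes fell in the same fits from 1674, 2274 and 2322 to between 705 and 1398, 1169 and 1720, and 1249 and 1798. Replicates 1 and 2 alone gave 1 for NH4Cl against control. For both agents against TGF-β alone, no FPKM filter, equal library sums and no intensity trend each gave 2, beside 1574, 1896 and 2151 passing genes over the whole table. The genes and libraries behind these counts are named with each gene. DUSP5 passed in all 3 comparisons under all 13 alternatives to the blocked fit, with adjusted p of at most 0.0333. EGFR with both agents against control passed under all 13 (at most 0.0399). EGFR with NH4Cl alone, which missed in the blocked fit, passed with median centring (0.0438), no intensity trend (0.0209) and voom (0.00288), and TGFA with both agents against control passed with voom (0.0455). Beyond the left-out libraries, the cause was not tested.

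No passing value changed sign: 0 of 9 in the blocked fit. Of values that did not pass, 26 of 51 in the blocked fit (at most 0.07 in size) and 46 of 60 in the unblocked fit (at most 0.41) changed sign under at least 1 alternative. No direction is claimed from those fits for such values, and the directions given for passing genes, such as DUSP5 at 0.41, are those of the blocked fit. That sign changes of values that pass under neither setting count as no reversal was decided after seeing the data. A lone left-out library leaves 2 in its group.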

Other observations

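Beyond the pathway, 4 of 11 tested markers of the colon epithelial line passed for NH4Cl against control in the blocked fit, 3 higher and 1 lower, beside 13.6% of all genes, and their number was not tested against that share. KRT19, which encodes a keratin, fell by 0.39 (adjusted p = 0.000131), and the claudin gene CLDN4 was higher by 0.24 (0.00935), CLDN3 by 0.16 (0.044) and the villin gene VIL1 by 0.18 (0.0382). Without the block 0 of the 11 passed by limma or voom, with 1 at an unadjusted p under 0.05 (10.8% of all genes), though in replicates 1 and 2 alone KRT19 (0.00311) and VIL1 (0.0478) passed unblocked. By voom with the block, 4 of the 11 were higher and 3 lower. Over 6 other settings of the blocked fit in all 12 libraries, voom among them, 1123 to 2243 genes passed over the whole table. The KRT19 call held without any 1 library, and that of CLDN4 was lost without control replicate 2 (0.0513) and in replicates 1 and 2 alone (0.0636). The CLDN3 call was lost without any of its 6 libraries, at 0.0677, 0.111 and 0.166 without control replicates 1, 2 and 3 and 0.0628, 0.168 and 0.11 without NH4Cl replicates 1, 2 and 3, and also with no FPKM filter (0.0879), median centring (0.0664), no intensity trend (0.0755) and replicates 1 and 2 alone (0.172). The VIL1 call was lost without control replicates 1 (0.0772), 2 (0.127) and 3 (0.122) and NH4Cl replicates 1 (0.118) and 2 (0.157), and with no FPKM filter (0.0903), equal library sums (0.0792), median centring (0.0556) and no intensity trend (0.0659). Of the 4 tested markers of other cell types, 1 passed, the endothelial gene VWF at 0.46 (0.00423) with a mean level of 3.01 FPKM, beside LUM at 0.18 (0.0672), COL1A1 at 0.11 (0.465) and LYZ at -0.26 (0.273). VWF did not pass without the block in the 12 libraries and did in replicates 1 and 2 alone (0.0209). These genes were named after their values were seen.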
